A study of Mus musculus with 10 samples.

Results

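The 41 genes described here encode the machinery of autophagy and of its selective forms, ER-phagy and mitophagy, together with the lysosomal proteins that receive its cargo. They were chosen by name, with earlier results of these data known, so their shares beside those of all genes are descriptive only. Each of the 41 symbols matched exactly 1 row of the 24160 rows in the deposited table, and all 41 passed the filter on low values, with at least 79 reads in every library. Messenger RNA was measured in the posterior wall of the left ventricle in 6 libraries from MC4R-/- mice and 4 libraries from WT mice, and the series title describes a dilated cardiomyopathy in the mutants. MC4R-/- mice lack the melanocortin 4 receptor, which is coupled to G proteins and known above all for limiting food intake through the hypothalamus. Mice of both genotypes were C57BL6/J, aged 30 weeks, came from matings between heterozygotes and were kept at 24 °C. Whether the libraries came from separate animals is not stated in so many words, so the p-values refer to the spread among these samples, part of which may be technical. The age and the housing temperature were shared by both genotypes, and no other treatment is named.

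In autophagy a double membrane, the phagophore, grows around a portion of cytoplasm, closes and fuses with a lysosome, where the contents are broken down. The ULK kinase complex and a class III PI3-kinase complex start the process, and a pair of ubiquitin-like conjugation steps then attach proteins of the ATG8 family (LC3 and GABARAP proteins) to the membrane. Cargo receptors carry a short motif that binds ATG8 proteins and so bring in particular cargo, such as sheets and tubules of endoplasmic reticulum in ER-phagy or mitochondria in mitophagy. Cardiomyocytes are long-lived cells that rely on these routes for the turnover of organelles.

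In MC4R-/- ventricles 2 of the 41 genes were lower than in WT ventricles. These were Retreg1, which encodes an ER-phagy receptor (also named FAM134B), and Gabarapl1, which encodes an ATG8 protein of the GABARAP branch. No member was higher at the threshold of 0.05 on the adjusted p (limma with Benjamini-Hochberg adjustment over 14611 genes; 0 were higher by edgeR or DESeq2, and 2 were higher at an unadjusted p below 0.05). Over all genes tested, 0.459% passed in either direction, 0.287% higher and 0.171% lower. Of the 82 other genes of the pathway listed by function, 1 passed. It was Trp53inp2, which encodes a nuclear and cytoplasmic protein that binds ATG8 proteins and promotes autophagosome formation, and it rose.

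The regions around the transcription starts of the 3 genes that passed are shown first, to place each gene in the genome. Each is a window of 250 bases before to 50 bases after an annotated start, read 5′ to 3′ from RefSeq on GRCm38.p6, the assembly that the deposited build mm10 also names. Capitals mark TCACGTG or its reverse complement, the core of the CLEAR element that the lysosomal transcription factor TFEB binds. GTAAACA, a core bound by FoxO factors, was searched on both strands too and was in none of these windows. For both cores only the exact letters were searched, so variants of them were not looked for. Retreg1 lies on the plus strand of chromosome 15 from 25843298 to 25973696. Its row in the table joins 6 RefSeq transcripts, among them a long form of 9 exons and shorter forms of 7 exons that start far inside the gene, so the values below do not tell these forms apart. Of the 4 RefSeq windows of Retreg1, 3 are printed: the first is at the start of the long form and the others at starts of short forms. The window not printed, chr15:25933302-25933601, had a GC content of 54.7% and held neither motif.
Retreg1, chr15:25843048-25843347, plus strand: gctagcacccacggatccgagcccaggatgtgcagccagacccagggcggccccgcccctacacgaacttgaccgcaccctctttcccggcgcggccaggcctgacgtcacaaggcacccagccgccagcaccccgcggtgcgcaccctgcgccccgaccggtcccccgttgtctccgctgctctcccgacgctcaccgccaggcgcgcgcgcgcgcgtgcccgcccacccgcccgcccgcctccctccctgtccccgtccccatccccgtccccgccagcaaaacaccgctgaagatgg
Retreg1, chr15:25940452-25940751, plus strand: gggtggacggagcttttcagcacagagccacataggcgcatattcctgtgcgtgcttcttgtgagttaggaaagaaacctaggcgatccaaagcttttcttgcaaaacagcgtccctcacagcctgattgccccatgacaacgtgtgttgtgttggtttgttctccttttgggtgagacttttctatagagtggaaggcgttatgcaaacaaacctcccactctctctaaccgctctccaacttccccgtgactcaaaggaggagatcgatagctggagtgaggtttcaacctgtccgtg
Retreg1, chr15:25942429-25942728, plus strand: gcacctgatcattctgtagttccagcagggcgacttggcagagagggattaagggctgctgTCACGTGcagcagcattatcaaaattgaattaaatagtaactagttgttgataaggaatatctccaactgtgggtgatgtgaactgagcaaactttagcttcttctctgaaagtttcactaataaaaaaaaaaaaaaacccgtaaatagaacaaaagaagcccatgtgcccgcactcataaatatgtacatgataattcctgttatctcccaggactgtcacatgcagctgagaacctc
Gabarapl1, chr6:129532942-129533241, plus strand: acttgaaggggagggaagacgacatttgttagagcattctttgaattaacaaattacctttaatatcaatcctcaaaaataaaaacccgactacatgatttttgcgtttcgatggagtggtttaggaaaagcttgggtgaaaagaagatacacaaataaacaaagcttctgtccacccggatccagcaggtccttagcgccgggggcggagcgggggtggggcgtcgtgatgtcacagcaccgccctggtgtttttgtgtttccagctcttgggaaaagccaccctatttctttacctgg
Trp53inp2, chr2:155381606-155381905, plus strand: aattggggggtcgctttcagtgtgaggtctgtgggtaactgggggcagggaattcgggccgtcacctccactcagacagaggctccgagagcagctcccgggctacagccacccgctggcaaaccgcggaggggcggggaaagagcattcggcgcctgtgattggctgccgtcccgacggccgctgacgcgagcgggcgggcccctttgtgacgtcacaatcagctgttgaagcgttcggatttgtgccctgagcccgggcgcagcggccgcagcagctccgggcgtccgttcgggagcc

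The first printed Retreg1 window had a GC content of 74.7% and the third printed one 40.7%. Among the 5 printed windows the CLEAR core stood only in the one at chr15:25942429-25942728. Of the 38 RefSeq windows of 34 members, 8 windows (21.1%) held it, against 3.77% of all 32851 windows. The FoxO core was in 1 of the 38 windows (2.63%), that of Retreg2, against 3.65% of all windows. These are matches of letters and say nothing about binding. Besides Retreg1, the CLEAR core was found before or at an annotated start of Lamp1, Ctsd, Atg3, Atg7 and Atg14. The same held for the ER-phagy receptor genes Retreg2 and Sec62. The Atg7 match lies before a start inside that gene, which runs from 114643127 to 114860604 on the plus strand of chromosome 6. The stretches below show 1 match per gene, with up to 10 bases on either side.
Lamp1, chr8:13159089-13159115, plus strand: gggcaagataTCACGTGgtccagcgcc
Ctsd, chr7:142387909-142387935, minus strand: gcccgcgtctCACGTGAcccgttgagg
Retreg2, chr1:75142705-75142731, plus strand: ttagggcacgTCACGTGgcatcgcgct
Sec62, chr3:30792833-30792859, plus strand: ttgtgaggtgTCACGTGaggagcggac
Atg3, chr16:45158724-45158750, plus strand: cctccttttgTCACGTGtcctgggaga
Atg7, chr6:114670953-114670979, plus strand: atattggtggTCACGTGtgcagtaagt
Atg14, chr14:47568419-47568445, minus strand: aacaaaatccCACGTGActggccctga
The 7 genes in this list did not pass the threshold, and their values follow under their roles. Among them, Ctsd averaged 9419 ± 573 normalized counts (SD, n = 6) in MC4R-/- ventricles and 8606 ± 338 (SD, n = 4) in WT ventricles, while Lamp1 averaged 3410.3 ± 90.0 in MC4R-/- and 3401 ± 58.2 in WT libraries.

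The libraries held 4145033 to 6425785 reads assigned to genes. The deposited values are counts of reads scaled by 1 size factor per library, called normalized counts here. Mc4r itself had 4 reads over the 6 MC4R-/- libraries and 2 over the 4 WT libraries, so it does not check the labels. The 8 cardiomyocyte markers summed to 411616 to 466645 normalized counts in MC4R-/- libraries and to 430933 to 480141 in WT libraries. WT replicate 2 stood apart in lymphocyte markers (886 normalized counts in sum, against at most 47.1 in the other WT libraries), and MC4R-/- replicate 5 in atrial markers (3155, against at most 943 in the other MC4R-/- libraries). WT replicate 3 had the fewest reads (4145033) and the highest value of 10 members, more than any other library. It also had the lowest value of 7 members, as did MC4R-/- replicate 1. Over all genes 67 passed the threshold, with 37, 29 and 44 without MC4R-/- replicates 1, 2 or 3, and 117, 31 and 26 without WT replicates 2, 3 or 4.

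Retreg1 had 1683, 1638, 1449, 1899, 1844 and 1627 normalized counts in MC4R-/- replicates 1 to 6, against 2584, 2069, 2785 and 2473 in WT replicates 1 to 4. The highest MC4R-/- library lay below the lowest WT library, so the genotypes did not overlap. In all, 2 of the 41 members were lower without overlap, against 0.938% of all genes tested, and 3 did not overlap in either direction, against 2.28%. The mean of Retreg1 was 1689.9 ± 162 (SD, n = 6) in MC4R-/- ventricles and 2478 ± 302 (SD, n = 4) in WT ventricles. On the log2 scale the fold change was -0.55 ± 0.08 (SE), with a 95% interval of -0.72 to -0.38 (limma, adjusted p = 0.00144), a fold of 0.68. Both SDs were above those that counting reads alone would give, which were 40.9 in MC4R-/- and 51.0 in WT libraries. Leaving out any single library kept the call, with adjusted p (limma) up to 0.0106 and a log2 fold change between -0.63 and -0.49. The larger change was without WT replicate 2, the WT library with the lowest value. The smaller was without WT replicate 3, the WT library with the highest value. The call was lost without limma's trend and robust steps (adjusted p = 0.167), where 0 genes of the whole table passed and 1290 had an unadjusted p below 0.05.

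Gabarapl1, on the plus strand of chromosome 6 from 129533192 to 129542331, had 649.7, 683, 773, 703, 699 and 758 normalized counts in MC4R-/- replicates 1 to 6, against 903, 882, 890.2 and 873 in WT replicates 1 to 4. Every MC4R-/- library was below every WT library, and the 4 WT values lay close together. The means were 711 ± 46.4 (SD, n = 6) in MC4R-/- and 887 ± 12.8 (SD, n = 4) in WT ventricles. The SD of the WT libraries was smaller than the 30.3 that counting reads alone would give at this depth, while that of the MC4R-/- libraries was larger than the corresponding 26.5. The log2 fold change was -0.32 ± 0.07 (SE), with a 95% interval of -0.46 to -0.18 (limma, adjusted p = 0.0268), a fold of 0.80. The call held in 5 of the 10 fits that left out a library, against 10 of 10 for Retreg1. It was lost without MC4R-/- replicates 1 (adjusted p = 0.0945) or 2 (0.0823), or without WT replicates 1 (0.0834), 3 (0.0616) or 4 (0.0806), with the log2 fold change between -0.35 and -0.30 over all leave-one-out fits (limma). It was also lost without limma's trend and robust steps (adjusted p = 0.205).

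The single library with the lowest value was MC4R-/- replicate 3 for Retreg1 and MC4R-/- replicate 1 for Gabarapl1. MC4R-/- replicate 3 had the lowest Retreg1 value of all 10 libraries and the highest Gabarapl1 value among the MC4R-/- libraries. No stretch of 50 bases in the annotated transcripts of Retreg1 or Gabarapl1 was shared with the transcripts of another gene (GENCODE M21), although Gabarapl1 overlaps 1 annotated model on the opposite strand (1700101I11Rik) and 1 on its own strand (Gm44243). Cardiomyocyte markers, whose sum was 0.945 times as high in MC4R-/- as in WT libraries, had a median log2 fold change of -0.10. Of these 8 markers, 0 passed by limma, edgeR or DESeq2 and 0 had an unadjusted p below 0.05 (limma). The 6 fibroblast markers summed to 5426 to 6165 normalized counts in MC4R-/- and to 4669 to 5574 in WT libraries. All 6 had a higher mean in MC4R-/- libraries, with a median log2 fold change of 0.26. Of these 6 markers, 1, Lum, passed by limma, edgeR and DESeq2, and 3 had an unadjusted p below 0.05 (limma). The 5 smooth muscle markers summed to 1494 to 2045 normalized counts in MC4R-/- and to 1781 to 2141 in WT libraries, with a median log2 fold change of -0.21 and 0 past the threshold by limma, edgeR or DESeq2 (1 at an unadjusted p below 0.05). The part of these cell types in the values of Retreg1 and Gabarapl1 was not tested. In bulk tissue, fewer cells of a type and less RNA per cell cannot be told apart.

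**Figure D1:**
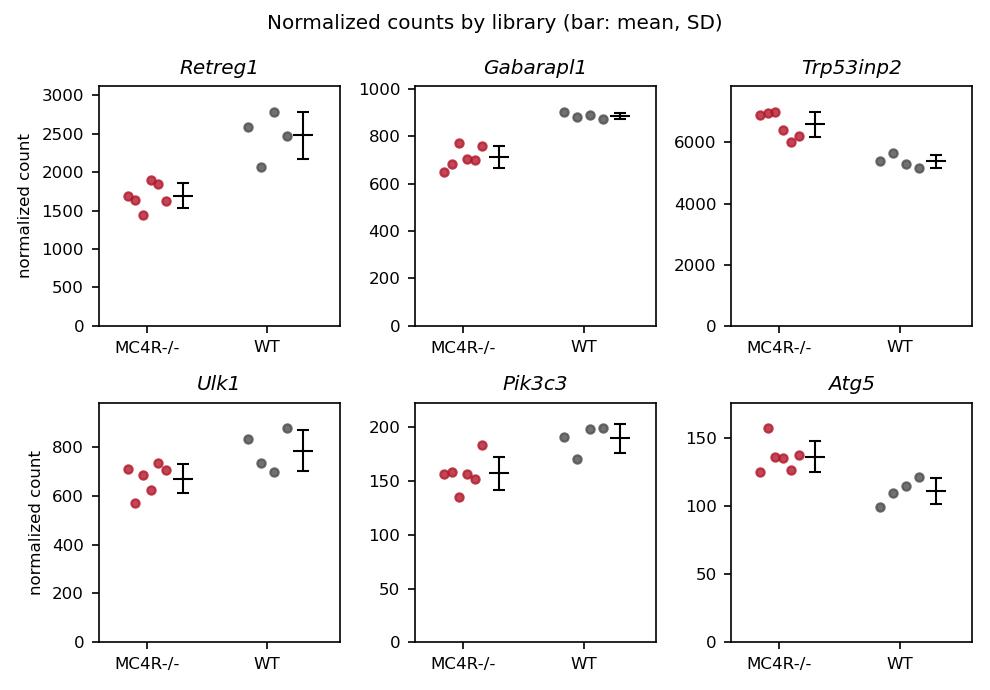
Normalized counts in each library for Retreg1, Gabarapl1, Trp53inp2, Ulk1, Pik3c3 and Atg5, with MC4R-/- (6 points) left of WT (4 points), and the mean with its SD as a bar. For Retreg1 and Gabarapl1 all MC4R-/- points lie below the WT points, for Trp53inp2 and Atg5 all lie above, and for Ulk1 and Pik3c3 the genotypes overlap; each vertical axis starts at 0.

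Core machinery held 18 of the members, and 0 passed in either direction by limma, edgeR or DESeq2. An unadjusted p below 0.05 (limma) was found for 3 of the 18 (16.7%). Over all genes tested 0.459% passed by limma and 9.6% had an unadjusted p below 0.05. A count of 0 past the threshold, here or in a smaller group below, is close to the share over all genes. The median log2 fold change of these 18 was -0.01, as it was over all 14611 genes tested. The kinase gene Ulk1, whose product receives signals from AMPK and mTORC1, had 707, 569, 682, 624, 731 and 703 normalized counts in MC4R-/- libraries, against 831, 735, 695 and 875 in WT libraries. The ranges overlapped, since WT replicate 3 lay below 3 of the MC4R-/- libraries. Its log2 fold change was -0.23 ± 0.08 (SE; limma, adjusted p = 0.301). Its paralog Ulk2 averaged 759 ± 57.4 (SD, n = 6) in MC4R-/- and 725 ± 25.0 (SD, n = 4) in WT libraries, and Atg13, the adaptor of the kinase complex, 471 ± 26.8 in MC4R-/- and 447 ± 20.7 in WT libraries.

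Of the PI3-kinase complex, Pik3c3 (the lipid kinase itself, VPS34) averaged 157 ± 15.7 (SD, n = 6) in MC4R-/- and 189.5 ± 13.2 (SD, n = 4) in WT libraries. Its log2 fold change was -0.27 ± 0.10 (SE; limma, adjusted p = 0.309). Atg14, which directs this kinase to sites of autophagosome formation, averaged 98.6 ± 15.5 in MC4R-/- and 116 ± 7.77 in WT libraries, and the scaffold gene Becn1 362 ± 23.5 in MC4R-/- and 340.04 ± 27.7 in WT libraries. The means of Pik3c3 and Atg14 were thus lower in MC4R-/- libraries and that of Becn1 higher, none past the threshold.

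Of the 4 genes of phagophore growth, 0 passed (limma; also 0 by edgeR or DESeq2 and 0 at an unadjusted p below 0.05). The scramblase gene Atg9a averaged 634 ± 54.5 in MC4R-/- and 677 ± 67.3 in WT libraries, with 44.0% of its stretches of 50 bases also in an overlapping gene model, and the lipid transfer gene Atg2a 278 ± 23.2 in MC4R-/- and 283 ± 27.3 in WT libraries. The phosphoinositide-binding proteins of this step are encoded by Wipi1 (727 ± 21.3 in MC4R-/- and 693 ± 67.1 in WT libraries) and Wipi2 (283 ± 25.9 in MC4R-/- and 287 ± 16.7 in WT libraries). All 4 had 95% intervals of the fold change within 1.2-fold in either direction.

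Among the 8 genes of ATG8 conjugation, Atg5 stood furthest from no change. It encodes the protein that ATG12 is joined to, and it had 125, 157, 136, 135, 127 and 137 normalized counts in MC4R-/- libraries, against 99.1, 109, 115 and 121 in WT libraries. The lowest MC4R-/- library was above the highest WT library, and Atg5 was the 1 member of 41 that was higher without overlap, against 1.34% of all genes tested. Its log2 fold change of 0.29 ± 0.11 (SE) did not pass (limma, adjusted p = 0.312), and neither did its count test (edgeR, adjusted p = 0.308). Its partner Atg12 averaged 243 ± 24.2 (SD, n = 6) in MC4R-/- and 238 ± 10.2 (SD, n = 4) in WT libraries, and Atg16l1, which joins the conjugate to the membrane, 267 ± 21.1 in MC4R-/- and 269 ± 29.4 in WT libraries. The E1-like enzyme gene Atg7 averaged 137 ± 8.52 in MC4R-/- and 149 ± 14.8 in WT libraries. The E2-like enzyme genes Atg3 and Atg10 averaged 173 ± 16.96 in MC4R-/- and 181 ± 21.7 in WT libraries, and 181 ± 27.3 in MC4R-/- and 202 ± 37.1 in WT libraries. The proteases that trim ATG8 proteins, Atg4b and Atg4d, averaged 199.7 ± 13.5 in MC4R-/- and 188 ± 23.0 in WT libraries, and 294 ± 26.4 in MC4R-/- and 288 ± 31.2 in WT libraries.

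**Figure D2:**
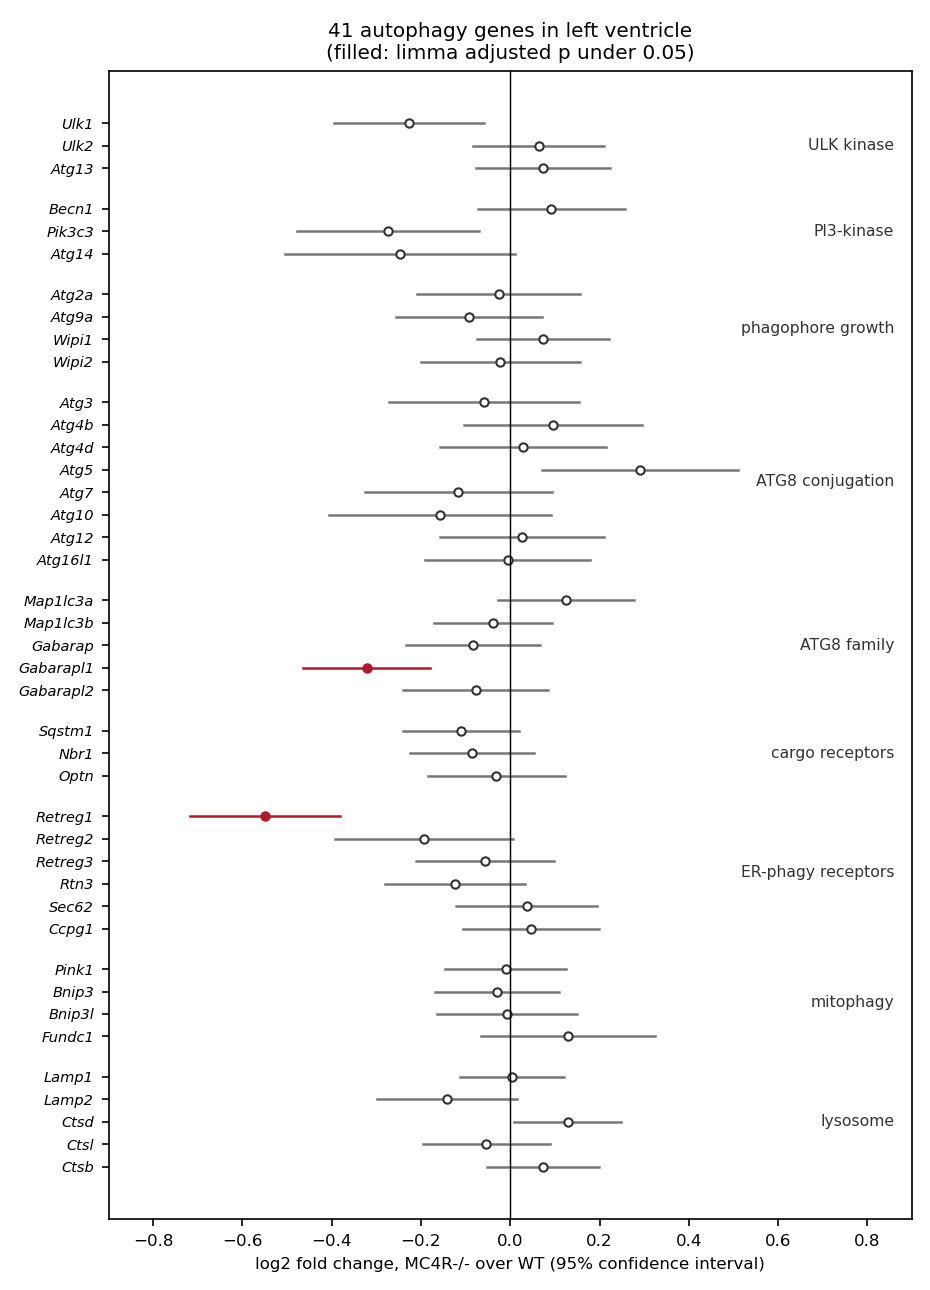
Log2 fold change of the 41 genes, MC4R-/- over WT, with the 95% confidence interval from limma, grouped by role; filled points passed an adjusted p of 0.05. Only Retreg1 (-0.55) and Gabarapl1 (-0.32) are filled, and of the 39 others none has an interval reaching beyond 1.5-fold in either direction.

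Within the ATG8 family Gabarapl1 was the 1 of 5 genes that passed, and it was lower, where 0.171% of all genes tested passed lower. Per kilobase of transcript, the level was highest for Map1lc3a, at 2484 ± 164 normalized counts per kb (SD, n = 6) in MC4R-/- and 2286 ± 277 (SD, n = 4) in WT libraries. Gabarapl1 had 391 ± 25.5 per kb in MC4R-/- and 487 ± 7.02 per kb in WT libraries. Map1lc3a, which encodes an LC3 protein, averaged 2383 ± 158 normalized counts in MC4R-/- and 2193 ± 266 in WT libraries, with overlapping ranges. Map1lc3b, the LC3 form most used as a marker of autophagosomes, averaged 1632 ± 96.9 in MC4R-/- and 1676 ± 61.6 in WT libraries. Gabarap averaged 1139 ± 67.5 in MC4R-/- and 1210.1 ± 126 in WT libraries, and Gabarapl2 551 ± 46.9 in MC4R-/- and 582 ± 53.4 in WT libraries. For these 4 genes the log2 fold changes ran from -0.08 to 0.13, and no adjusted p was below 0.637 (limma). Stretches of 50 bases of Map1lc3b (13.4%) and of Gabarapl2 (17.01%) recur in other annotated gene models, so their counts could hold reads of such copies.

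The soluble cargo receptors had lower means in MC4R-/- libraries in all 3 cases, with 0 of 3 past the threshold (limma; also 0 by edgeR, 0 by DESeq2 and 0 with an unadjusted p below 0.05). Sqstm1, which encodes p62, the receptor for ubiquitin-marked cargo, had 2572, 2711, 2822, 2587, 2766 and 2825 normalized counts in MC4R-/- libraries, against 3005, 3198, 2657 and 2875 in WT libraries. WT replicate 3 lay within the MC4R-/- range and the other WT libraries above it. The log2 fold change of Sqstm1 was -0.11 ± 0.06 (SE; limma, adjusted p = 0.624). Nbr1 averaged 1206 ± 49.4 (SD, n = 6) in MC4R-/- and 1282 ± 104 (SD, n = 4) in WT libraries, and the mitophagy adaptor Optn 817 ± 63.9 in MC4R-/- and 835 ± 63.9 in WT libraries.

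Among the 6 ER-phagy receptors only Retreg1 passed, and it was lower, where 0.171% of all genes tested passed lower. It was also the most abundant of them per kilobase of transcript, with 594 ± 57.1 normalized counts per kb (SD, n = 6) in MC4R-/- and 871 ± 106 (SD, n = 4) in WT libraries. The next, Ccpg1, a receptor induced by ER stress, had 266 ± 15.6 per kb in MC4R-/- and 258 ± 24.2 per kb in WT libraries, and shares 75.3% of its stretches of 50 bases with an overlapping gene model. The paralogs of Retreg1, which also bend ER membrane through reticulon homology domains, were less abundant still. Retreg2 averaged 148 ± 8.74 normalized counts in MC4R-/- and 170.1 ± 14.8 in WT libraries, a log2 fold change of -0.19 ± 0.10 (SE; limma, adjusted p = 0.546). Retreg3 averaged 327 ± 6.39 in MC4R-/- and 341 ± 18.8 in WT libraries. Rtn3, whose long form is the receptor for ER tubules, averaged 677 ± 49.4 in MC4R-/- and 739 ± 71.9 in WT libraries, and the translocon-associated receptor Sec62 488 ± 41.7 in MC4R-/- and 475 ± 21.1 in WT libraries. For these 5 receptors the 95% intervals stayed within 1.5-fold, and that of Retreg1, -0.72 to -0.38, reached beyond.

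**Figure D3:**
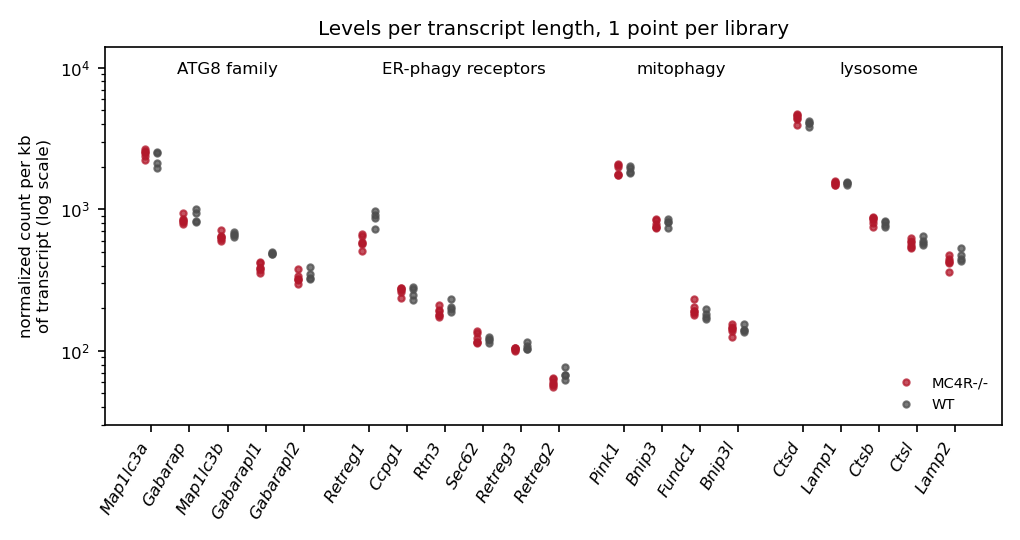
Normalized counts per kilobase of transcript (log axis) for the ATG8 family, ER-phagy receptors, mitophagy and lysosomal genes, 1 point per library, MC4R-/- left of WT for each gene. Within the ER-phagy receptors Retreg1 stands highest in both genotypes and its MC4R-/- points lie below its WT points.

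Of the 4 mitophagy genes, 0 passed the threshold (limma; also 0 by edgeR, 0 by DESeq2 and 0 with an unadjusted p below 0.05). Pink1, the kinase that marks damaged mitochondria, averaged 4501 ± 383 (SD, n = 6) in MC4R-/- and 4524 ± 226 (SD, n = 4) in WT libraries, a log2 fold change of -0.01 with a 95% interval of -0.15 to 0.12. The outer-membrane receptor genes Bnip3 and Bnip3l averaged 1379 ± 90.1 in MC4R-/- and 1407 ± 80.9 in WT libraries, and 460.3 ± 31.3 in MC4R-/- and 462 ± 28.5 in WT libraries. Their intervals ran from -0.17 to 0.11 and from -0.16 to 0.15. Fundc1, another receptor of the outer membrane, averaged 199 ± 19.0 in MC4R-/- and 181 ± 12.9 in WT libraries. Copies that share stretches of 50 bases exist for Bnip3 (21.9% of its stretches) and Bnip3l (25.1%).

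Of all members, Ctsd was the most abundant per kilobase of transcript, with 4428 ± 270 (SD, n = 6) normalized counts per kb in MC4R-/- and 4046 ± 159 (SD, n = 4) in WT libraries. Ctsd, the aspartic protease cathepsin D, had 9170.1, 9860.4, 9721, 9387, 8417 and 9959 normalized counts in MC4R-/- libraries, against 8668, 8917, 8125 and 8713 in WT libraries. MC4R-/- replicate 5 lay within the WT range and the other MC4R-/- libraries above it. The log2 fold change was 0.13 ± 0.06 (SE; limma, adjusted p = 0.465). An overlapping gene model holds 36.6% of its stretches of 50 bases. The cysteine protease genes Ctsb and Ctsl averaged 3952 ± 223 (SD, n = 6) in MC4R-/- and 3755 ± 154 (SD, n = 4) in WT libraries, and 1129 ± 73.1 in MC4R-/- and 1171 ± 73.4 in WT libraries. Lamp1 and Lamp2 encode the main proteins of the lysosomal membrane. Lamp2, needed for fusion of autophagosomes with lysosomes in heart, averaged 1074 ± 94.2 in MC4R-/- and 1185 ± 107 in WT libraries, a log2 fold change of -0.14 ± 0.08 (SE; limma, adjusted p = 0.591). Macrophages are rich in cathepsins. The 10 macrophage markers summed to 2399 to 3022 normalized counts in MC4R-/- libraries and 2099 to 2597 in WT libraries, with a higher mean in 9 of 10. Of these 10 markers, 0 passed by limma or edgeR and 1 by DESeq2, and 4 had an unadjusted p below 0.05 (limma). Their part in the cathepsin values was not tested.

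Over all 41 members, 26 had a lower mean log2 value in MC4R-/- libraries and 15 a higher one, and the median log2 fold change was -0.03 against -0.01 over all 14611 genes tested. An unadjusted p below 0.05 (limma) was found for 6 members (14.6%), against 9.6% of all genes tested. Among the 6943 genes tested at the level of the lowest member or above, the share was 11.2%. Of the 6 members, 4 were lower, where 4.41% of all genes were, and 2 higher, where 5.19% were. The 95% interval stayed within 1.5-fold for 40 of the 41 (97.6%), the exception being Retreg1, a share close to the 97.0% of the 6943 genes tested at the level of the lowest member or above. Within 1.2-fold it was 26 of the 41 (63.4%), against 47.8% of these 6943 genes, whose levels are not matched further to those of the members. The members summed to between 0.807% and 0.844% of all normalized counts in MC4R-/- libraries and between 0.815% and 0.841% in WT libraries.

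Of the 82 other pathway genes, all tested, 1 passed higher and 0 lower, and the median log2 fold change was -0.02. Over all genes tested 0.287% passed higher and 0.171% lower. Trp53inp2, on chromosome 2 from 155381811 to 155389847, had 6893, 6965, 7003, 6419, 6024 and 6209 normalized counts in MC4R-/- libraries, against 5389, 5653, 5302 and 5174 in WT libraries. Every MC4R-/- library was above every WT library. The log2 fold change was 0.29 ± 0.06 (SE), with a 95% interval of 0.17 to 0.41 (limma, adjusted p = 0.0195). The call was lost in 6 of the 10 leave-one-out fits, with adjusted p (limma) of 0.0749 without MC4R-/- replicate 1, 0.0723 without 2 and 0.0518 without 3, and of 0.0542 without WT replicate 1, 0.053 without 3 and 0.115 without 4. It was also lost without limma's trend and robust steps (adjusted p = 0.292).

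Of the same 82 genes, 2 were lower without overlap, where 0.938% of all genes tested were, and neither of these 2 passed the threshold. Wdr45, a relative of the Wipi genes, averaged 173 ± 7.74 (SD, n = 6) in MC4R-/- and 204 ± 22.3 (SD, n = 4) in WT libraries (limma, adjusted p = 0.397). The second, the transcription factor gene Foxo3, was named because it was among these 2, after its values were seen. It had 229.9, 212, 169.9, 233, 262 and 269.7 normalized counts in MC4R-/- libraries, against 303, 298, 273 and 289 in WT libraries, a log2 fold change of -0.35 ± 0.10 (SE) that did not pass (limma, adjusted p = 0.17). Among the 22 lysosomal genes of this list of 82, the smallest unadjusted p was that of Ctsz, which encodes cathepsin Z and averaged 179 ± 21.2 in MC4R-/- and 151 ± 24.0 in WT libraries (limma, adjusted p = 0.475). Genes that passed were absent from the groups for fusion with lysosomes (0 of 14), mitophagy (0 of 8) and ER-phagy (0 of 5). Over all genes tested 0.459% passed, so 0 in groups of these sizes is close to that share. For fusion the smallest unadjusted p belonged to Vps11, a subunit of the tethering complex HOPS (181 ± 17.02 in MC4R-/- and 209 ± 30.4 in WT libraries). For mitophagy it belonged to Bcl2l13, a mitophagy receptor (886 ± 55.9 in MC4R-/- and 817 ± 47.2 in WT libraries). For ER-phagy it belonged to Cdk5rap3, a part of the UFMylation machinery (128 ± 9.70 in MC4R-/- and 139.7 ± 10.6 in WT libraries). None of the 3 passed (limma; none by edgeR or DESeq2, nor had any an unadjusted p below 0.05). In the remaining groups the smallest unadjusted p belonged to Atg101, a part of the ULK complex (91.5 ± 6.89 in MC4R-/- and 102 ± 12.9 in WT libraries), Uvrag, a partner of Becn1 (154 ± 23.4 in MC4R-/- and 177 ± 28.4 in WT libraries), Atg16l2, a relative of Atg16l1 (37.6 ± 6.95 in MC4R-/- and 44.8 ± 6.74 in WT libraries), and Tollip, a cargo adaptor (596 ± 31.6 in MC4R-/- and 543 ± 44.0 in WT libraries), none past the threshold.

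**Figure D4:**
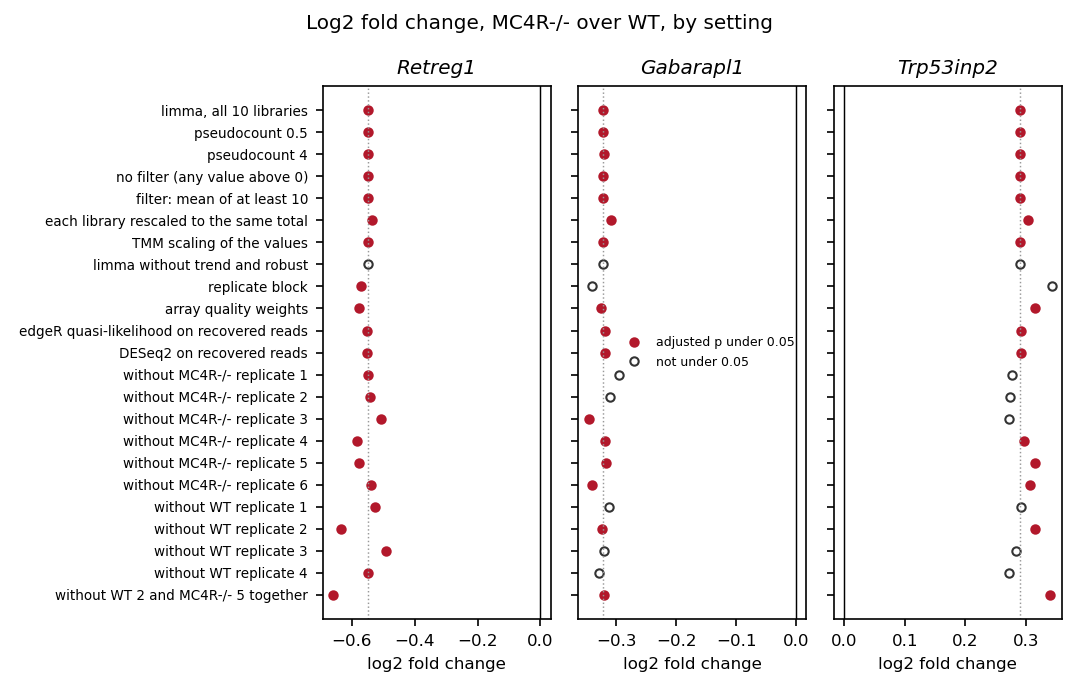
Log2 fold change, MC4R-/- over WT, of Retreg1, Gabarapl1 and Trp53inp2 in the fit over all 10 libraries and in 22 other settings, with filled points for an adjusted p below 0.05; each panel has its own horizontal axis. Retreg1 is filled in 21 of the 22 other settings, Gabarapl1 in 15 and Trp53inp2 in 14, and no point crosses 0.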

How the data were processed

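Poly(A)-selected RNA was sequenced after a stranded KAPA library preparation from 200 ng of total RNA with an integrity number above 7, per the labels' protocols. Per the submitters' processing notes, the build was mm10 and the tools included Cuffnorm 2.2.1.1, Cuffdiff 2.2.1.3 and Cufflinks 2.2.1 besides TopHat2 2.1.0 and Bowtie2. Their roles, the annotation and the strand setting are not given in the sources used here. As deposited, the signal is a read count scaled by 1 size factor per library, since in every library 99.9862% or more of the values above 0 came within 0.1 of a whole number of reads. No value was divided by gene length. Without a stated strand setting, reads of a gene and of an antisense partner cannot be told apart.

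RefSeq identifiers were matched to symbols through a RefSeq table of GRCm38.p6 (23984 of 24160 rows). The 10 columns were matched to libraries by the labels. The test was limma 3.58.1 (R 4.3.3; trend and robust options), fitted without covariates to log2(normalized count + 1) in the 10 libraries for the 14611 genes averaging at least 1, with two-sided p-values adjusted by Benjamini-Hochberg. Fold changes are on that scale, which understates the change of low genes. Levels per kb use the mean length of the GENCODE M21 transcripts matched to a row. Counting SDs come from the recovered reads and cover counting error only. The members and lists, the role groups and the tests were chosen with earlier results of these data known. Named genes were all members and, of the other pathway genes, those past the threshold and the gene with the smallest p in each role group; Foxo3 was added after its values were seen, and the settings and outlier checks include it.

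On simulated counts for this comparison (14467 genes, 50 changed at each size, all with a mean of at least 50) 14% of genes passed where the simulated fold was 1.2, 32% at 1.3, 72% at 1.5 and 96% at 2, with 4 calls among 14267 unchanged genes. Alternatives were other pseudocounts, filters and scalings, limma without trend and robust, library weights, a replicate block, leaving out libraries, and edgeR 4.0.16 and DESeq2 1.42.0 on the recovered reads.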

Additional observations from a re-analysis of the deposited data

Results flagged for a closer look

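Of 104 groups of libraries checked for a sample far from the others (52 named genes in each genotype), 2 held one, where chance alone flags about 1 group in 20. Wipi2 was at 234 normalized counts in MC4R-/- replicate 3, while the other MC4R-/- libraries had 278 to 302. Vps11 was at 215 in MC4R-/- replicate 2, against 171 to 179 in the other MC4R-/- libraries. Neither gene passed the threshold in any setting.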

How the results depend on the processing

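The count of members past the threshold was 2 in the 10 other settings of pseudocount, filter, scaling, library weights, edgeR, DESeq2 and removal of WT replicate 2 with MC4R-/- replicate 5, 0 without limma's trend and robust steps (1290 genes at an unadjusted p below 0.05) and 1, Retreg1, with the replicate block. It was 1 to 2 when each library was left out. The count over the other pathway genes was 0 without trend and robust steps, 0 with the replicate block, and 0 to 1 when each library was left out. Over all genes 67 passed, against 0 without trend and robust steps, 118 with library weights, 118 by DESeq2, 168 without WT replicate 2 and MC4R-/- replicate 5 together, and 26 to 117 when each library was left out; the cause was not tested. With the replicate block 52 genes passed, and adjusted p was 0.0135 for Retreg1, 0.16 for Gabarapl1 and 0.0515 for Trp53inp2. The replicate numbers share only a number: deviations of same-numbered libraries from their group means correlated at -0.15 to -0.03 over 12058 genes, and no WT library correlated best with its own number. Over 52 named genes and 22 settings, 49 genes never passed, 16 of 1144 values lost a call, and 0 changed sign where the log2 fold change exceeded its SE. Another 35 values of 12 genes changed sign within 1 SE of 0. In the simulation 1.2-fold changes were called in 14% of genes. Differences of that size in single members could thus often be missed with these libraries. The genes changed in the simulation averaged at least 50 normalized counts and were not matched in level to the members.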
